A study of Homo sapiens with 4 samples.

Results

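The potassium, calcium and sodium channel genes were taken as every row of the count table whose symbol has the form KCN followed by letters and a number, CACN followed by a subunit code, SCN with a number and A or B, or SCNN1 with A, B, D or G. This gave 88 of 17634 genes, of which 55 belong to the potassium, 16 to the calcium and 17 to the sodium family. PC-3, an established cell line grown from a prostate cancer metastasis in bone, was the source of the RNA. PC-3-RRM2 cells carried a lentiviral vector encoding RRM2, a subunit of ribonucleotide reductase, and were set against PC-3-EV cells with the empty vector, with 2 libraries in each group. Per the methods, the RRM2 lines were stable and kept under puromycin selection. Nothing in the labels or methods states that a group's libraries were from separately derived lines or separate cultures, so the p-values below reflect the spread between libraries alone, and that spread may be technical. The effect of the RRM2 vector and any other difference between the lines cannot be told apart.

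Ion channels are membrane proteins that let one kind of ion pass down its gradient. Potassium channels hold the membrane at a negative potential, voltage-gated sodium channels carry the upstroke of the action potential in nerve and muscle, and voltage-gated calcium channels turn depolarization into calcium entry. Voltage-gated channels have a pore-forming subunit, and many also have auxiliary subunits that set their surface level and gating. The epithelial sodium channel, in contrast, is not voltage-gated and takes up sodium across the apical membrane of epithelia. Transcripts of several voltage-gated channels are also found in carcinoma cells, which do not fire action potentials as neurons do.

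The libraries held 30149181 and 30419769 estimated counts in PC-3-RRM2 cells, against 37801301 and 30778321 in PC-3-EV cells. The overexpressed gene checked the labels, with 2933 and 2996 counts of RRM2 in the PC-3-RRM2 libraries and 823 and 635 in the PC-3-EV libraries. In log2 CPM (CPM, a gene's counts relative to the size of its library after TMM scaling), the correlation across genes was 0.991 within the PC-3-RRM2 pair and 0.995 within the PC-3-EV pair, against 0.954 to 0.957 between the groups. In bulk RNA, fewer cells with a transcript and less of it per cell cannot be told apart. An exact permutation test could reach no two-sided p smaller than 0.333 for 1 gene in this design, so all p-values are from the quasi-likelihood test of edgeR fitted to all genes and adjusted over them. Genes were called higher or lower in PC-3-RRM2 cells where the adjusted p was under 0.05 and the change exceeded 1.5-fold.

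Of the 88 channel genes, 69 passed the filter on low counts and 27 of these were called, 11 higher and 16 lower in PC-3-RRM2 cells. That is 39.1% of the tested members (15.9% higher and 23.2% lower), whereas 18.2% of all 15781 tested genes were called (9.97% higher and 8.19% lower). The sodium family had 8 of 13 tested genes called (2 higher and 6 lower), the calcium family 8 of 14 (3 higher and 5 lower) and the potassium family 11 of 42 (6 higher and 5 lower). The median log2 fold change was −0.51 over the sodium, −0.11 over the calcium and 0.14 over the potassium genes tested, against 0.00 over all genes. Groups that did not overlap were found for 48 of the 69 members (69.6%), 21 higher and 27 lower, which is close to the 69.0% of all tested genes (35.8% higher and 33.2% lower). Some genes passed the filter only through the group in which they were high. Among the called members these were KCNH2, KCNK5, KCNQ1, CACNG4 and SCN1A through PC-3-RRM2 cells, and CACNG6 and SCN2B through PC-3-EV cells. Where the filter was reached in both groups, 20 of 53 members were called (6 higher and 14 lower), against 16.5% of 14762 genes. By family, 8 of 32 potassium genes were then called (3 higher and 5 lower), 6 of 11 calcium (2 and 4) and 6 of 10 sodium (1 and 5). Their median log2 fold changes were 0.00 (potassium), −0.13 (calcium) and −0.61 (sodium), against −0.01 over all genes. These shares describe the families and were not tested against other gene sets.

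**Figure D1:**
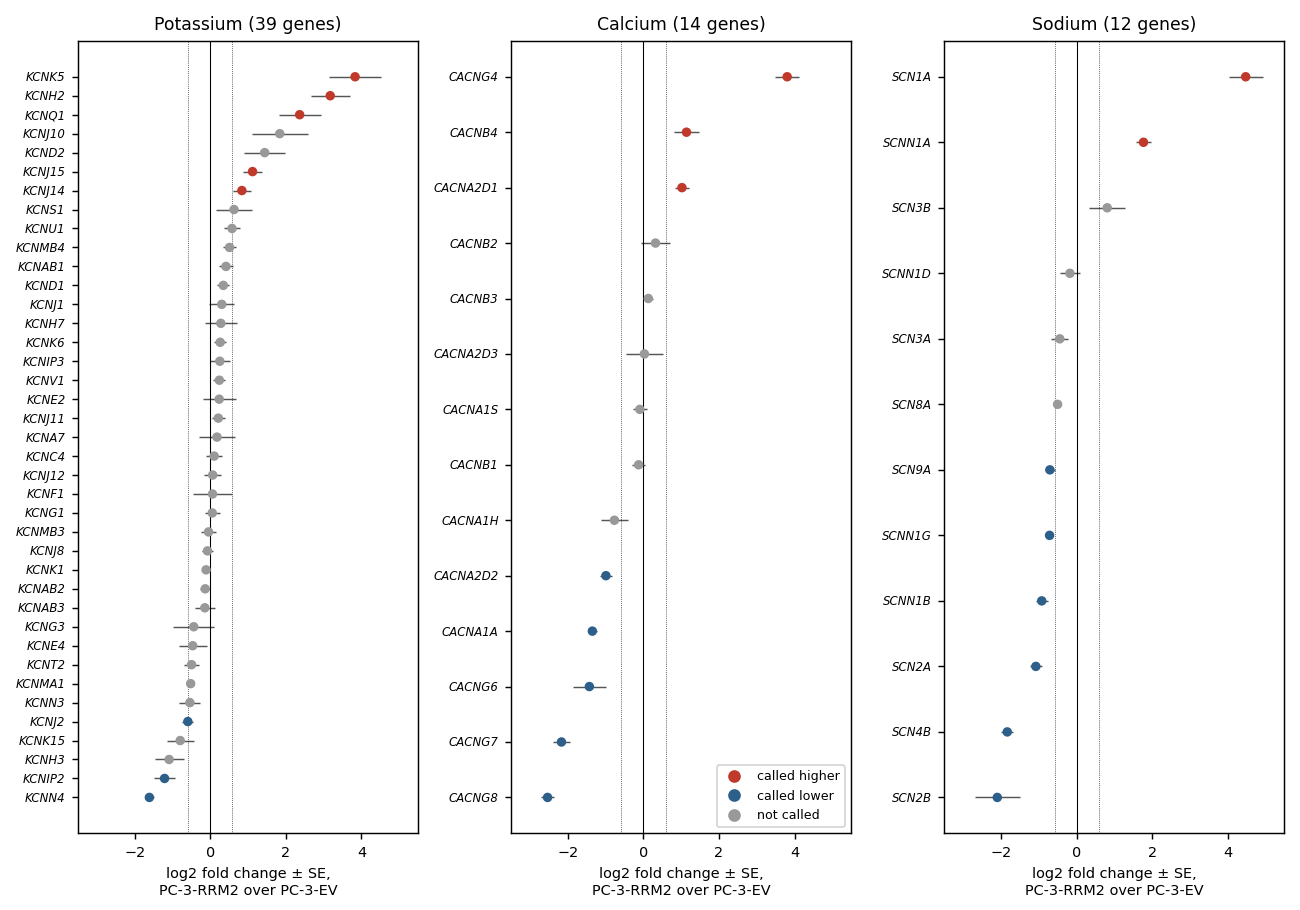
Log2 fold change (PC-3-RRM2 over PC-3-EV, horizontal axis) of tested channel genes, 1 row per gene, in the potassium (39 genes), calcium (14) and sodium (12) families; points are estimates of edgeR, bars are 1 standard error, and dotted lines mark a 1.5-fold change. Red and blue points are the 10 genes called higher and the 14 called lower that are shown, gray points were not called; SCN1A, at 4.48, and CACNG8, at −2.54, lie at the ends.

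Among the potassium channel genes, the largest called decrease in CPM was in KCNN4. KCNN4 encodes the intermediate-conductance calcium-activated potassium channel (KCa3.1) of red cells, lymphocytes and many epithelia. It had 30.6 and 24.4 CPM in the PC-3-RRM2 libraries, against 79.2 and 89.2 CPM in the PC-3-EV libraries. Both PC-3-RRM2 values lay far below both PC-3-EV values, and the log2 fold change was −1.61 (SE 0.124, adjusted p = 8.04e-05). KCNIP2, a calcium-binding subunit of the Kv4 channels of heart and brain, had 1.61 and 0.956 CPM in PC-3-RRM2 cells, against 3.20 and 2.75 CPM in PC-3-EV cells. The groups did not overlap (log2 fold change −1.21, SE 0.271, adjusted p = 0.0113), and the antisense KCNIP2-AS1 overlaps the gene. KCNJ2, the inward rectifier Kir2.1 that steadies the resting potential of muscle, was close to the fold threshold with 5.07 and 5.60 CPM in PC-3-RRM2 cells, against 7.96 and 8.17 CPM in PC-3-EV cells (log2 fold change −0.59, adjusted p = 0.0155). Its call was lost without PC-3-RRM2 replicate 1 (−0.52), without PC-3-EV replicate 1 (−0.64, adjusted p = 0.0574) and without PC-3-EV replicate 2 (−0.62, adjusted p = 0.0596).

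The 6 potassium channel genes called higher were all of low abundance. KCNH2 encodes the hERG channel, whose current repolarizes the heart. It had 20 and 30 counts in PC-3-RRM2 cells and 3 in each PC-3-EV library, a log2 fold change of 3.17 (SE 0.515, adjusted p = 0.0028). KCNK5, the two-pore channel TASK-2 of kidney epithelia, had 14 and 27 counts in PC-3-RRM2 cells, against 2 and 1 in PC-3-EV cells. Over the groups this is 41 against 3 counts, a ratio per library size of 15.4 with an exact 95% interval of 4.91 to 77.7 for counting error only, and it passed the test of edgeR (adjusted p = 0.0044). KCNQ1, the pore of the slow delayed rectifier of the heart and of epithelial channels with KCNE subunits, had 29 and 18 counts in PC-3-RRM2 cells, against 3 and 7 in PC-3-EV cells. Its log2 fold change was 2.37 (SE 0.552, adjusted p = 0.0134), and it was not called without PC-3-EV replicate 1 (1.72, adjusted p = 0.0774). The antisense transcript KCNQ1OT1 lies within KCNQ1 and was called higher too (log2 fold change 1.09), at 909 and 973 counts in PC-3-RRM2 cells against 563 and 436 in PC-3-EV cells. As the strand setting of the counting is not given in the sources used here, reads of KCNQ1 and KCNQ1OT1 may not have been told apart.

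A pair of inward rectifier genes was also among the increases. KCNJ15 (Kir4.2, found in kidney and other epithelia) had 2.34 and 2.41 CPM in PC-3-RRM2 cells, against 0.899 and 1.31 CPM in PC-3-EV cells (log2 fold change 1.12, SE 0.254, adjusted p = 0.0120). Without PC-3-EV replicate 1, the lower of its pair, it was not called (0.84, adjusted p = 0.0983). KCNJ14 (Kir2.4) had 2.04 and 1.95 CPM in PC-3-RRM2 cells, against 1.03 and 1.21 CPM in PC-3-EV cells (log2 fold change 0.84, SE 0.234, adjusted p = 0.0275). Leaving out any 1 of the 4 libraries ended the KCNJ14 call, with log2 fold changes between 0.70 and 0.90 and adjusted p-values of 0.0501 to 0.200.

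The potassium family was dominated by KCNMA1, the pore of the large-conductance calcium- and voltage-activated BK channel, which took 76.3% and 78.6% of the family's CPM in the PC-3-RRM2 libraries and 80.1% and 78.8% in the PC-3-EV libraries. It had 923 and 906 CPM in PC-3-RRM2 cells, against 1304 and 1320 CPM in PC-3-EV cells. The PC-3-RRM2 values were clearly separate (log2 fold change −0.52, SE 0.0684, adjusted p = 0.00103), but the change stayed under 1.5-fold and KCNMA1 was not called. Per kb of exon, the level of KCNMA1 was 42.7 CPM in PC-3-RRM2 cells and 61.2 CPM in PC-3-EV cells, the highest of the family in both groups. KCNMB4, a BK beta subunit, had 8.86 and 6.96 CPM in PC-3-RRM2 cells, against 5.87 and 5.23 CPM in PC-3-EV cells, and missed the threshold (log2 fold change 0.51, adjusted p = 0.0514). Summed over its 55 genes, the family had 1182 ± 39.6 CPM in PC-3-RRM2 cells and 1652 ± 33.8 CPM in PC-3-EV cells (SD, n = 2 each). Without KCNMA1 the sums were 267 ± 28.1 CPM in PC-3-RRM2 cells and 340 ± 22.5 CPM in PC-3-EV cells.

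Of the other potassium genes not called, KCNK1, KCNG1 and KCNAB2 had the highest levels per kb of exon. KCNK1 (the two-pore channel TWIK-1) had 61.9 and 63.3 CPM in PC-3-RRM2 cells, against 65.5 and 69.8 CPM in PC-3-EV cells (log2 fold change −0.11, SE 0.0806). KCNG1 encodes a Kv6.1 subunit that does not conduct on its own and modifies other channel pores. It had 53.3 and 35.6 CPM in PC-3-RRM2 cells, against 37.6 and 48.3 CPM in PC-3-EV cells, and the groups overlapped (log2 fold change 0.05, SE 0.192). KCNAB2, a cytoplasmic beta subunit of Kv1 channels, also overlapped, with 41.3 and 31.4 CPM in PC-3-RRM2 cells and 38.8 and 41.1 CPM in PC-3-EV cells (log2 fold change −0.14, SE 0.133). By role, 1 of 9 tested auxiliary potassium genes was called (KCNIP2), 1 of 5 calcium- or sodium-activated (KCNN4), 3 of 8 inward rectifiers, 1 of 4 two-pore channels (KCNK5) and 5 of 16 voltage-gated channels. These shares run from 11.1% (auxiliary) to 37.5% (inward rectifiers), against 18.2% of all tested genes. Where the filter was reached in both groups, 0 of 3 two-pore, 3 of 9 voltage-gated and 3 of 7 inward rectifier genes were called. The counts were then 1 of 8 for auxiliary and 1 of 5 for calcium- or sodium-activated genes, against 16.5% of all genes. The adjusted p-values of KCND2, the Kv4.2 pore (0.0785), KCNJ10, the Kir4.1 pore of glia and kidney (0.0902), and KCNH3, an ether-a-go-go type channel (0.0608), missed the threshold although their log2 fold changes were 1.44, 1.84 and −1.09. All 3 had at most 1.51 CPM in any library. The 23 other potassium genes tested had log2 fold changes of −0.80 (KCNK15) to 0.63 (KCNS1), adjusted p-values of 0.0625 (KCNU1) to 0.941 (KCNF1) and at most 9.98 CPM in any library (KCNK6).

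**Figure D2:**
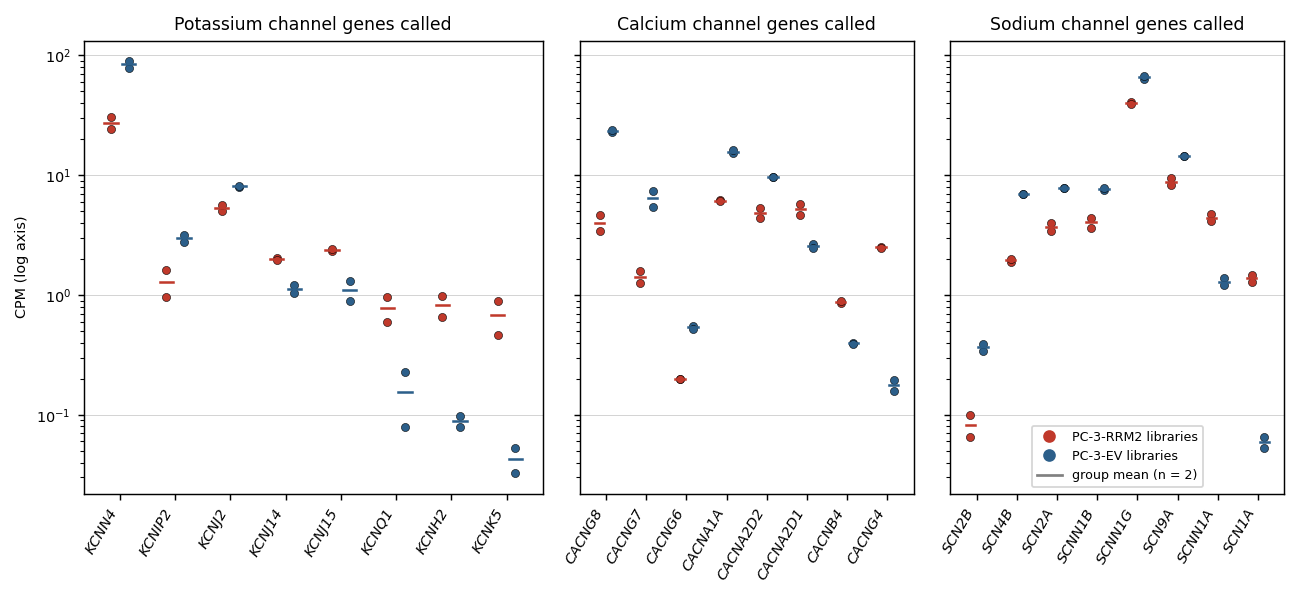
CPM on a log axis of 24 called channel genes in each library, with the potassium, calcium and sodium families in separate panels; red points are the 2 PC-3-RRM2 libraries, blue points the 2 PC-3-EV libraries, and short lines the group means. In every gene shown both PC-3-RRM2 points lie on the same side of both PC-3-EV points, and the genes called higher lie below 6 CPM in all libraries, whereas KCNN4 and SCNN1G, called lower, lie above 24 CPM in all libraries.

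In the calcium family, all 4 gamma subunit genes tested were called, against 18.2% of all tested genes. However, CACNG4 passed the filter only through PC-3-RRM2 cells and CACNG6 only through PC-3-EV cells. The filter was reached in both groups by 2 gamma subunit genes, CACNG7 and CACNG8. Several gamma subunits act mainly as transmembrane regulators of AMPA receptors (TARPs) in neurons, and CACNG6 is a relative of the skeletal muscle calcium channel subunit. CACNG8 (TARP gamma-8) had 3.39 and 4.62 CPM in PC-3-RRM2 cells, against 22.8 and 23.8 CPM in PC-3-EV cells. Its log2 fold change was −2.54 (SE 0.162, adjusted p = 3.15e-05), so that the PC-3-EV mean was 5.81-fold the PC-3-RRM2 mean in the fit. CACNG7 had 1.58 and 1.25 CPM in PC-3-RRM2 cells, against 5.42 and 7.42 CPM in PC-3-EV cells (log2 fold change −2.17, SE 0.232, adjusted p = 0.00041). CACNG6 was near the floor of the filter, with 6 counts in each PC-3-RRM2 library and 21 and 16 in the PC-3-EV libraries (log2 fold change −1.43, SE 0.438, adjusted p = 0.0377). Its call was lost when any 1 library was left out (−1.41 to −1.52, adjusted p = 0.105 to 0.206). CACNG4 (TARP gamma-4) went the other way, with 77 and 75 counts in PC-3-RRM2 cells and 6 in each PC-3-EV library. Its log2 fold change was 3.80 (SE 0.313, adjusted p = 0.000105), and the level reached 2.50 ± 0.0443 CPM in PC-3-RRM2 cells, against 0.177 ± 0.0266 CPM in PC-3-EV cells (SD, n = 2 each). Summed, the gamma subunits had 8.12 ± 0.590 CPM in PC-3-RRM2 cells and 30.4 ± 2.18 CPM in PC-3-EV cells, a ratio of 0.267, in which CACNG8 and CACNG7 carry most of the PC-3-EV sum.

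The gamma subunit genes that fell are neighbors. In the coordinates of the deposited table, which matched the GRCh38 position of every member, CACNG7, CACNG8 and CACNG6 lie in this order on the plus strand of chromosome 19 (chr19:53912737-54012667), whereas CACNG4 lies on chromosome 17. Of the 5 other genes tested within 100 kb, 1 was called, and it was lower. That gene was OSCAR, the osteoclast-associated receptor, with a log2 fold change of −0.62 (adjusted p = 0.00399). MYADM on the other side had −0.57 and missed the fold threshold (adjusted p = 0.00291), and the values of NDUFA3 and TFPT were −0.06 and −0.24, with adjusted p-values above the threshold.

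The pore and the remaining auxiliary subunits of calcium channels moved in both directions. CACNA1A encodes the P/Q-type pore Cav2.1 of presynaptic terminals. It had 6.16 and 6.13 CPM in PC-3-RRM2 cells, against 15.3 and 16.1 CPM in PC-3-EV cells (log2 fold change −1.35, SE 0.127, adjusted p = 0.0002). The alpha2delta subunits, extracellular proteins that carry the pore to the surface and bind gabapentin, had 1 gene called each way. CACNA2D1 had 4.64 and 5.77 CPM in PC-3-RRM2 cells, against 2.64 and 2.48 CPM in PC-3-EV cells (log2 fold change 1.02, SE 0.184, adjusted p = 0.00457). CACNA2D2 had 5.30 and 4.38 CPM in PC-3-RRM2 cells, against 9.60 and 9.71 CPM in PC-3-EV cells (log2 fold change −0.99, SE 0.153, adjusted p = 0.00221). Thus CACNA2D1 was at the higher of its levels in the cells in which CACNA2D2 was at the lower, and the third gene tested, CACNA2D3, had at most 0.425 CPM in any library. CYB561D2 overlaps CACNA2D2 on the opposite strand (log2 fold change −0.36, not called). Among the cytoplasmic beta subunits, CACNB4 had 26 and 27 counts in PC-3-RRM2 cells, against 15 and 12 in PC-3-EV cells (log2 fold change 1.14, SE 0.335, adjusted p = 0.0332). The CACNB4 call was lost when any 1 library was left out (1.08 to 1.17, adjusted p = 0.0735 to 0.202).

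CACNB3, the calcium channel gene of highest level per kb of exon, was not called. It had 42.6 and 32.9 CPM in PC-3-RRM2 cells, against 33.7 and 35.4 CPM in PC-3-EV cells (log2 fold change 0.13, SE 0.129). CACNB1 overlapped as well, with 7.57 and 5.74 CPM in PC-3-RRM2 cells and 6.98 and 7.59 CPM in PC-3-EV cells (log2 fold change −0.13, SE 0.172). CACNA1S, the L-type pore of skeletal muscle, had 4.12 and 3.33 CPM in PC-3-RRM2 cells, against 3.89 and 4.09 CPM in PC-3-EV cells (log2 fold change −0.10, SE 0.179). CACNA1H, a T-type pore, had 1.68 and 0.725 CPM in PC-3-RRM2 cells, against 1.96 and 2.16 CPM in PC-3-EV cells (log2 fold change −0.77, adjusted p = 0.130). CACNB2, a further beta subunit, had 0.856 and 0.593 CPM in PC-3-RRM2 cells, against 0.687 and 0.458 CPM in PC-3-EV cells, and the groups overlapped. The other T-type pore genes, CACNA1G and CACNA1I, did not pass the filter on low counts.

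In the sodium family, the pore genes on chromosome 2 moved in opposite directions. SCN1A encodes Nav1.1 of inhibitory neurons. It had 45.3 and 39.2 estimated counts in PC-3-RRM2 cells, against 2.02 and 2.01 in PC-3-EV cells. Its log2 fold change of 4.48 (SE 0.453, adjusted p = 0.000306) was the largest of the called channel genes, yet the level was 1.38 ± 0.139 CPM in PC-3-RRM2 cells, against 0.0591 ± 0.00885 CPM in PC-3-EV cells (SD, n = 2 each). SCN9A encodes Nav1.7 of pain-sensing neurons and is the next sodium channel gene on the chromosome. It was lower, with 8.30 and 9.40 CPM in PC-3-RRM2 cells and 14.4 and 14.5 CPM in PC-3-EV cells (log2 fold change −0.71, SE 0.128, adjusted p = 0.00451). SCN2A, which encodes Nav1.2 of excitatory neurons, had 3.39 and 3.99 CPM in PC-3-RRM2 cells, against 7.80 and 7.81 CPM in PC-3-EV cells (log2 fold change −1.08, SE 0.157, adjusted p = 0.00164). SCN3A, beside SCN2A, had 1.75 and 1.68 CPM in PC-3-RRM2 cells, against 2.59 and 2.06 CPM in PC-3-EV cells and was not called (log2 fold change −0.45, adjusted p = 0.154). SCN8A (Nav1.6, on chromosome 12) was the most abundant sodium channel pore per kb of exon, with 60.4 and 67.8 CPM in PC-3-RRM2 cells and 94.0 and 87.9 CPM in PC-3-EV cells. Its groups were separate (log2 fold change −0.51, SE 0.0889, adjusted p = 0.00404) but under the fold threshold, which it passed without PC-3-RRM2 replicate 2 (−0.59) or PC-3-EV replicate 2 (−0.60). These pore genes are close paralogs with estimated counts that were not whole, so their reads may have been divided among copies, and LOC101929680 overlaps parts of SCN1A and SCN9A on the opposite strand.

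The windows around the transcription starts of the sodium channel pore genes called on chromosome 2 are shown, because these neighbors moved in opposite directions. Each runs from 250 bases before to 50 bases after a RefSeq start in GRCh38.p14, 5′ to 3′ on the strand of the gene, with the GC box (GGGCGG or its reverse complement) in capitals. The SCN1A window is chr2:166149112-166149411 on the minus strand, that of SCN9A is chr2:166375895-166376194 on the minus strand, and that of SCN2A is chr2:165239164-165239463 on the plus strand.
SCN1A: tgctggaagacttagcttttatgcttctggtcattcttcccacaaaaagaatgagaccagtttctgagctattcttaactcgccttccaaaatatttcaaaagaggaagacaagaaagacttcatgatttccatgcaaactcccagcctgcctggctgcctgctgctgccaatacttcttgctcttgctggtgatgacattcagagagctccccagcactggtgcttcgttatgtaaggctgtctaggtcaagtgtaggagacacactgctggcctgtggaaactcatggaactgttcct
SCN9A: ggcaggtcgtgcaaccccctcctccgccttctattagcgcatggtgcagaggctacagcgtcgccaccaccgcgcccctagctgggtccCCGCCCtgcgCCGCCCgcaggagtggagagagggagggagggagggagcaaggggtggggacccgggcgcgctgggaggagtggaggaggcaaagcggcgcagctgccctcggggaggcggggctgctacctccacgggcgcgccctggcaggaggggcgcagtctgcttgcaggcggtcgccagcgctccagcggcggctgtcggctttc
SCN2A: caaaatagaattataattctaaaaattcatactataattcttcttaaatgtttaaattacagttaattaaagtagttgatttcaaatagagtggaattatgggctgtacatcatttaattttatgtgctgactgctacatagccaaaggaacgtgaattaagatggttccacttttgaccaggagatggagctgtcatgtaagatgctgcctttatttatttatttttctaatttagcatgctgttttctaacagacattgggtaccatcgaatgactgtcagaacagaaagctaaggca
The SCN9A window was 73.3% G and C with 28 CpG dinucleotides and 2 GC boxes, whereas that of SCN1A was 46.3% G and C with 2 CpG dinucleotides, and that of SCN2A 31.7% with 2. A GC box on either strand was found in 45.0% of 35116 promoter windows of 300 bases in the table. Among members with a window within 500 bases of the listed start, it was found in 4 of 6 called higher, 7 of 10 called lower and 17 of 24 tested but not called. The AP-1 motif TGANTCA, which overlaps no GC box, was found on either strand in 7.71% of all windows and in 1 of these genes, CACNB4. Median G and C content was 67.2% for members called higher, 65.4% for those called lower and 65.7% for those not called, against 58.7% for all windows. These matches are descriptions of letters in a window and say nothing of a factor bound there.

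The beta subunits, single-pass membrane proteins that bind the sodium channel pore and act in cell adhesion, had 2 of 4 genes called, both lower. Of all tested genes, 18.2% were called. However, SCN2B passed the filter only through PC-3-EV cells and SCN3B only through PC-3-RRM2 cells. Where the filter was reached in both groups, 1 of 2 beta subunit genes was called, against 16.5% of all genes. SCN4B had 1.88 and 2.01 CPM in PC-3-RRM2 cells, against 6.95 and 6.96 CPM in PC-3-EV cells (log2 fold change −1.84, SE 0.165, adjusted p = 0.000163). SCN2B had 3 and 2 counts in PC-3-RRM2 cells, against 13 and 12 in PC-3-EV cells (log2 fold change −2.10, SE 0.601, adjusted p = 0.0299). At such counts the SCN2B call did not survive the loss of any 1 library (−1.85 to −2.41, adjusted p = 0.0623 to 0.185). SCN3B had overlapping groups (log2 fold change 0.81, adjusted p = 0.219).

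SCN4B and SCN2B are neighbors on the minus strand of chromosome 11 (chr11:118133377-118176623), and the gene 13.5 kb before SCN4B in the coordinates moved in the other direction. That gene is TMPRSS4, a membrane serine protease, with 25 and 28 counts in PC-3-RRM2 cells and 0 in both PC-3-EV libraries. With 3 counts put in for the PC-3-EV group, TMPRSS4 was 19.9-fold higher in PC-3-RRM2 cells per library size. The lower end of the exact interval, for counting error only, was 15.6-fold. On the far side, MPZL3 and MPZL2 had log2 fold changes of 0.21 and −0.58 and were not called.

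**Figure D3:**
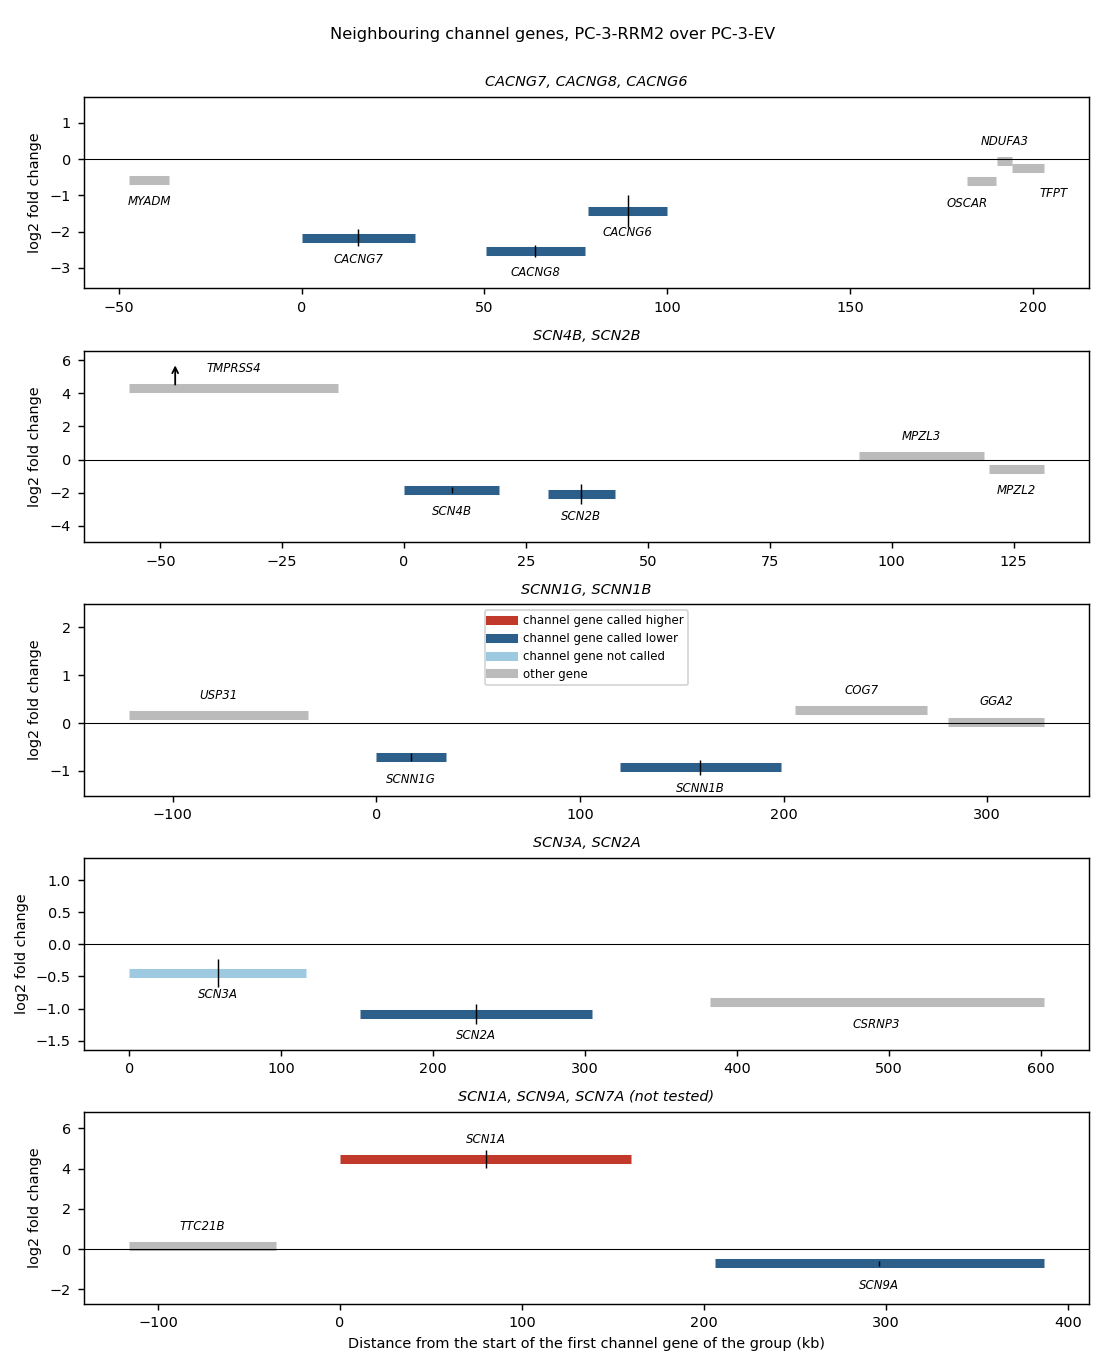
Log2 fold change (PC-3-RRM2 over PC-3-EV, vertical axis) of 5 groups of neighboring channel genes and of other tested genes within 100 kb, drawn as bars from gene start to gene end against the distance in kb from the start of the first channel gene; vertical ticks on channel genes are ± 1 SE, colors give the call for channel genes, and gray bars are other genes whatever their call. The bar of TMPRSS4, marked by an arrow, stands at its ratio with 3 counts put in for the PC-3-EV group. CACNG7, CACNG8 and CACNG6 were all lower, as were SCN4B with SCN2B and SCNN1G with SCNN1B, whereas SCN1A was higher beside SCN9A, which was lower.

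The epithelial sodium channel (ENaC) is built of alpha, beta and gamma subunits, with delta in place of alpha in some human tissues. The alpha subunit moved against beta and gamma. SCNN1A (alpha) had 4.71 and 4.15 CPM in PC-3-RRM2 cells, against 1.37 and 1.21 CPM in PC-3-EV cells (log2 fold change 1.77, SE 0.198, adjusted p = 0.000503). SCNN1B (beta) had 4.41 and 3.66 CPM in PC-3-RRM2 cells, against 7.46 and 7.88 CPM in PC-3-EV cells (log2 fold change −0.92, SE 0.160, adjusted p = 0.00377). SCNN1G (gamma) had 40.7 and 39.0 CPM in PC-3-RRM2 cells, against 63.6 and 67.4 CPM in PC-3-EV cells (log2 fold change −0.72, SE 0.0852, adjusted p = 0.000649). SCNN1D (delta) had 14.7 and 8.41 CPM in PC-3-RRM2 cells, against 10.7 and 15.5 CPM in PC-3-EV cells, and the groups overlapped (log2 fold change −0.18, SE 0.269). Per kb of exon, the order of levels in PC-3-RRM2 cells was gamma (11.4 CPM), delta (2.996), beta (1.47) and alpha (1.09), and in PC-3-EV cells gamma (18.7 CPM), delta (3.40), beta (2.79) and alpha (0.317). Thus gamma exceeded alpha in both groups, whereas delta and beta in PC-3-EV cells differed by less than the SD of delta. SCNN1G and SCNN1B lie together on chromosome 16 (chr16:23182719-23381300), where USP31, COG7 and GGA2 within 100 kb were not called. LTBR, which overlaps SCNN1A on the opposite strand, was not called (log2 fold change −0.26).

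Of 19 listed genes that regulate ENaC, all were tested, 6 were called higher and 1 lower, with a median log2 fold change of 0.35. Among all tested genes, 9.97% were called higher and 8.19% lower. As the list was chosen with earlier results of these data known, its counts of calls are descriptions only. Of the listed proteases that activate the channel by cleaving its subunits, ST14, PRSS8 and TMPRSS4 were called higher, whereas FURIN was not called (log2 fold change −0.03, adjusted p = 0.908). ST14 (matriptase) had 52.5 and 37.2 CPM in PC-3-RRM2 cells, against 0.793 and 0.752 CPM in PC-3-EV cells (log2 fold change 5.85, SE 0.231, adjusted p = 2.83e-06). PRSS8 (prostasin) had 23.6 and 16.8 CPM in PC-3-RRM2 cells, against 0.238 and 0.523 CPM in PC-3-EV cells (log2 fold change 5.77, SE 0.313). TMPRSS4, given above, belongs to the same list. SPINT1, a membrane inhibitor of matriptase, was called higher with them (log2 fold change 1.44), as were the ubiquitin ligase NEDD4 (0.83) and the kinase SGK3 (1.15). WNK4, a kinase of renal salt transport, was lower, with 28.2 and 25.4 CPM in PC-3-RRM2 cells and 41.6 and 47.7 CPM in PC-3-EV cells (log2 fold change −0.74).

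**Figure D4:**
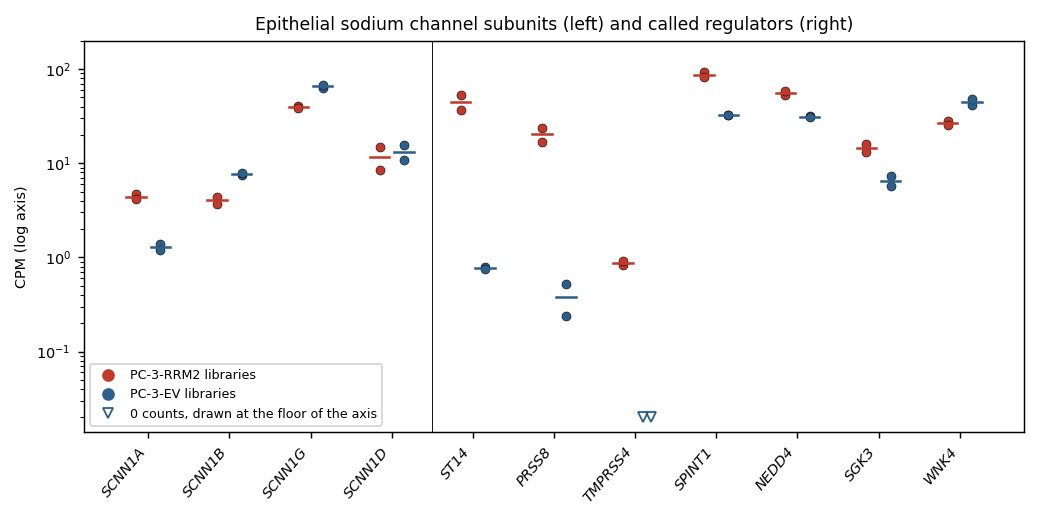
CPM on a log axis of the ENaC subunits (left of the line) and of the ENaC regulators that were called (right of it); red points are the 2 PC-3-RRM2 libraries, blue points the 2 PC-3-EV libraries, lines are group means, and open triangles stand for 0 counts. SCNN1A is higher and SCNN1B and SCNN1G are lower in PC-3-RRM2 cells, SCNN1D overlaps, and ST14 and PRSS8 show the widest gaps among genes with counts in both groups.

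Other genes of ion transport were read from lists compiled from general knowledge, but with earlier results of these data known. Their counts of calls are therefore descriptions only. Of all tested genes, 18.2% were called. Of 6 tested Na/K-ATPase subunits and FXYD regulators, 2 were called, both higher. The pump subunit ATP1B1 had 176 and 201 CPM in PC-3-RRM2 cells, against 97.4 and 97.9 CPM in PC-3-EV cells (log2 fold change 0.95), and FXYD3 had a log2 fold change of 3.74. Of 19 tested genes of store-operated entry, calcium release and calcium pumps, 3 were called higher and 1 lower. The Golgi calcium and manganese pump ATP2C2 had 23.3 and 21.8 CPM in PC-3-RRM2 cells, against 0.238 and 0.490 CPM in PC-3-EV cells (log2 fold change 5.98), and the ryanodine receptor RYR2 (1.77) and the pump ATP2A3 (1.24) were higher at low counts. The endoplasmic calcium sensor STIM2 was lower (−0.62). Of 11 tested TRP channel genes, 2 were called higher (TRPV6, 2.44, and TRPV4, 0.73) and 2 lower (TRPV2, −1.27, and PKD2, −0.65). Of 16 tested partners of the channels outside the symbol rule, the sulfonylurea receptor ABCC9, which joins Kir6 channels, was higher (1.62) and FGF14, which binds sodium channels, was lower (−1.16). Of 20 tested calcium sensors, kinases and phosphatases, 4 were called higher (CAMK4, 1.70, NFATC1, 0.80, NFATC4, 0.63, and CALM2, 0.59) and 1 lower. The gene called lower was CAMK2B, a neuronal calmodulin kinase subunit, with 46 and 41 counts in PC-3-RRM2 cells, against 306 and 320 in PC-3-EV cells (log2 fold change −2.69, adjusted p = 7.55e-05). Several of these list calls were lost in other settings. That of FGF14 was lost under DESeq2, without PC-3-RRM2 replicate 1 and without PC-3-EV replicate 1. Of the store-operated list, 1 gene was called higher without PC-3-EV replicate 1, and 4 and 3 were called lower without PC-3-RRM2 replicate 2 and without PC-3-EV replicate 2. Of the calcium sensors, 2 were called higher under DESeq2, without PC-3-EV replicate 1 and without PC-3-EV replicate 2. Of the TRP genes, 1 was called higher without PC-3-RRM2 replicate 1 or PC-3-EV replicate 2, and 1 lower under DESeq2 and without PC-3-RRM2 replicate 2 or either PC-3-EV library. Of the partners, 2 were called higher without PC-3-RRM2 replicate 2 or PC-3-EV replicate 1 and with no filter.

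Markers of cell types that express many of these channels were read beside them. All 5 epithelial markers were present, with a summed level of 626 to 718 CPM in PC-3-RRM2 cells and 540 to 625 CPM in PC-3-EV cells, and EPCAM and CDH1 were called higher (log2 fold changes 2.94 and 2.31). KRT19, the most abundant of them, had 251 and 183 CPM in PC-3-RRM2 cells, against 294 and 356 CPM in PC-3-EV cells, and was just under the fold threshold (log2 fold change −0.58), which it passed with RLE size factors, limma-voom, the replicate block, without PC-3-RRM2 replicate 1 and without PC-3-EV replicate 1. KRT18 and KRT8 were not called (0.14 and 0.01). The prostate marker KLK3 was not called. The 7 neuron markers analyzed summed to 117 to 124 CPM in PC-3-RRM2 cells and 253 to 271 CPM in PC-3-EV cells. The fall of this sum came from NEFL, the marker of highest level and the only neuron marker called lower. NEFL had 53.0 and 49.5 CPM in PC-3-RRM2 cells, against 189 and 202 CPM in PC-3-EV cells (log2 fold change −1.93). MAP2 was higher (1.04), whereas SYT1 (−0.42), NEFM (−0.80), RBFOX3 (0.63) and TUBB3 (0.21) were not called. The synaptic SNAP25 had at most 10 counts in any library. The 3 neuroendocrine markers analyzed summed to 116 to 118 CPM in PC-3-RRM2 cells and 212 to 214 CPM in PC-3-EV cells, nearly all from ENO2, which was lower (−0.88). The muscle marker TNNT2 and the leukocyte marker PTPRC were not called, DES and CD14 did not pass the filter, and the sum of either pair was at most 0.856 CPM in any library. The neuron sum, through NEFL, and the neuroendocrine sum, mostly through ENO2, were thus lower in PC-3-RRM2 cells. In the same cells the neuronal channel genes CACNG8, CACNA1A and SCN2A were lower, whereas SCN1A and CACNG4 were higher. The part of the cell type markers in these results was not tested.

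By level, the calls were read over the 53 members that reached the filter in both groups, since others passed only through the group in which they were high. Of 23 such members with a mean of at least 5 CPM, 10 were called and all 10 were lower, against 6.82% lower and 7.44% higher among all genes of that level. Between 1 and 5 CPM, 5 of 24 were called higher and 4 lower (15.7% and 14.4% of all genes), and under 1 CPM 1 of 6 was called, higher (4.52%). The summed level of the sodium family was 152 ± 1.42 CPM in PC-3-RRM2 cells and 223 ± 2.19 CPM in PC-3-EV cells, and that of the calcium family was 75.9 ± 8.60 CPM in PC-3-RRM2 cells and 108 ± 4.63 CPM in PC-3-EV cells (SD, n = 2 each). In every family the sum was lower in PC-3-RRM2 cells in both libraries.

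The remaining 19 members did not pass the filter on low counts and had at most 21 counts in any library. They included the potassium channel genes KCNE1, KCNE3, KCNH1, KCNH8, KCNJ3, KCNJ5, KCNJ13, KCNK2, KCNK9, KCNK13, KCNN2, KCNQ5 and KCNS3, the calcium channel genes CACNA1G and CACNA1I, and the sodium channel genes SCN4A, SCN7A and SCN11A. KCNK13, a two-pore channel known from microglia, had 1 count in each PC-3-RRM2 library, against 10 and 15 in the PC-3-EV libraries. The PC-3-EV total of 25 counts was 11.1-fold the PC-3-RRM2 total of 2 per library size, with an exact 95% interval of 2.77 to 96.6 for counting error only. For KCNJ3 the PC-3-EV total of 7 counts was 2.07-fold the PC-3-RRM2 total of 3, with an interval of 0.473 to 12.4. KCNQ5 had 6 and 2 counts in PC-3-RRM2 cells, against 21 and 9 in PC-3-EV cells. KCNK2 had 5 and 19 counts in PC-3-RRM2 cells, against 3 and 2 in PC-3-EV cells. At this depth no difference was tested for these genes in the main comparison.

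Across the alternatives in processing, 19 of the 27 calls were made under all 9 settings: 6 of 11 in the potassium, 6 of 8 in the calcium and 7 of 8 in the sodium family. The others included KCNJ2, KCNJ14, KCNJ15, KCNQ1, CACNB4, CACNG6 and SCN2B. Under DESeq2 the adjusted p-values of KCNJ14, KCNJ15, KCNQ1, CACNB4, CACNG6 and SCN2B were 0.0530 (KCNQ1) to 0.277 (CACNG6).

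**Figure D5:**
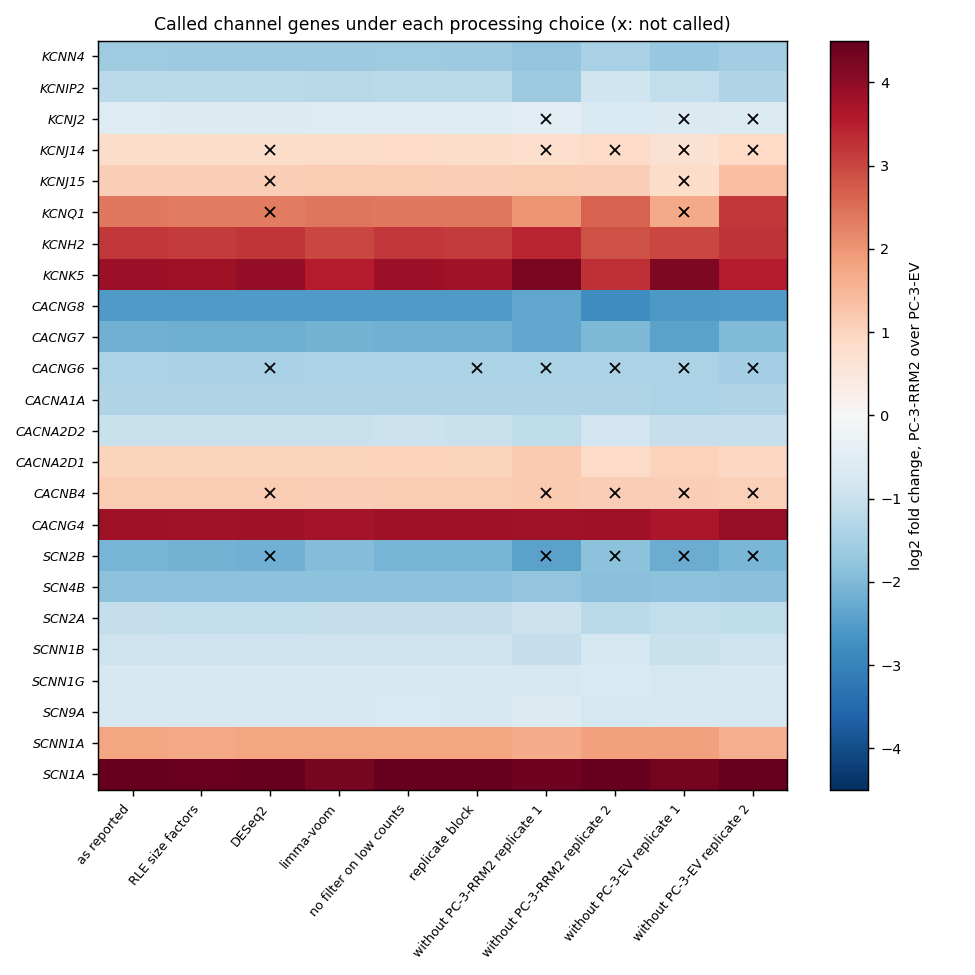
Log2 fold change (PC-3-RRM2 over PC-3-EV, color scale) of 24 called channel genes, 1 row per gene, as reported and under 9 other processing choices, 1 column each; a cross marks a setting in which the gene was not called. No gene changes sign, and the crosses fall on 7 genes, mostly of low counts, in the DESeq2 and leave-one-out columns, with 1 for CACNG6 under the replicate block.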

How the data were processed

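RNA-seq of total RNA was compared between PC-3-RRM2 (n = 2 libraries) and PC-3-EV cells (n = 2 libraries), grouped by the sample labels. The authors quantified the reads in Partek Flow and deposited estimated counts per gene, not normalized. Not given in the sources used here were the software version, aligner, annotation, build and strand setting. By library, 56.0% to 57.7% of values were whole (tolerance 1e-09), and the smallest sum of a gene over the libraries was 10. The coordinates of all 88 channel genes overlapped the gene of the same name and strand in GENCODE release 29 (GRCh38). Exon lengths, the union of the exons, came from that release, and promoter windows and starts from RefSeq (GRCh38.p14), where 55 members had a window within 500 bases of the listed start.

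Estimated counts were rounded to whole numbers, filtered with filterByExpr by group (a CPM of 0.327 in 2 libraries and a minimum total) and scaled by TMM. The quasi-likelihood F-test of edgeR 4.0.16 (R 4.3.3) was run over 15781 genes with Benjamini-Hochberg adjustment, and calls needed an adjusted p under 0.05 and a change of more than 1.5-fold, as in the study. The standard error (SE) was the log2 fold change divided by the square root of F. Where a group held 1 to 3 counts, the ratio was given with an exact 95% interval. For 0 counts, the ratio with 3 counts put in for the group was given with the lower end of the exact interval. These intervals cover counting error only, since PCR copies are not independent molecules. The test was checked on simulated data: in 5 simulations of this comparison with 200 changed genes and about 15600 tested, the test recovered 81.0% of changes of 2-fold and 94.4% of changes of 4-fold, and called 9.2 unchanged genes on average. Replicates were not copies (chi-square per degree of freedom 15.9 for the PC-3-RRM2 pair and 6.15 for the PC-3-EV pair).

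Alternatives were RLE size factors, DESeq2 1.42.0, limma-voom (limma 3.58.1), no filter, a replicate block and leaving out each library. Genes named were RRM2, all called members, members under the fold threshold, the uncalled members of highest CPM per kb (4 potassium, 3 calcium and 3 sodium), and up to 4 called genes of smallest p in each list. Neighbors, overlapping genes, further list genes and other members printed were chosen after seeing their values. The members and lists were chosen with earlier results of these data known. Some genes that the rule covers are not reported here, although they are part of the counts, sums and medians.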

Additional observations from a re-analysis of the deposited data

How the results depend on the processing

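Of 80 counts of calls recomputed over all genes and the 3 families, 77 were within 1.5 times the reported count. The exceptions were the potassium genes called higher, 2 under DESeq2 in place of 6 and 2 to 6 over the fits that left out a library, and the potassium genes called lower, 4 to 8 over these fits in place of 5 (8 without PC-3-RRM2 replicate 1). In such fits the lone library of a group is assumed to vary like the other pair. Of 342 log2 fold changes of named genes recomputed, 300 had the same direction and side of the threshold as reported, 31 lost the call, 3 gained it and 8 reversed sign. The reversals were in genes that were not called, with ranges over the fits without 1 library of −0.27 to 0.32 for KCNG1, −0.35 to 0.0496 for KCNAB2, −0.0673 to 0.30 for CACNB3, −0.34 to 0.0585 for CACNB1, −0.26 to 0.0475 for CACNA1S and −0.63 to 0.17 for SCNN1D. The cause was not tested.

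Deviations of same-numbered libraries from their group means had a correlation of −0.269 over 15781 genes. With 2 libraries per group, its sign turns with the numbering of either group, so it cannot show whether libraries were paired. With the replicate block, 1628 genes were called higher and 1396 lower (1574 and 1292 without it), and CACNG6 was the called member that lost its call (log2 fold change −1.43, adjusted p = 0.0569 in edgeR). The crossed pairing, added after seeing the data, called 1722 genes higher and 1531 lower. Of the 8 calls lost under some setting, KCNQ1, CACNB4, CACNG6 and SCN2B had at most 29 counts in any library, whereas KCNJ2 had 154 to 301. KCNK5 and KCNH2, with at most 30, kept their calls under all 9 settings.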

Other observations

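Channel genes of chromosome 19 were mostly lower, a pattern noticed after their values were seen. All 10 were tested, 6 were called lower and 1 higher (KCNJ14), against 9.59% lower and 6.77% higher among the 1064 tested genes of the chromosome. The genes called lower included CACNG7, CACNG8 and CACNG6, which are neighbors, and CACNA1A and KCNN4 elsewhere on the chromosome. CACNG6 passed the filter only through PC-3-EV cells, the group in which it was high. The calls of CACNG6 and KCNJ14 were lost when any 1 library was left out.

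Near the SCN2A gene, CSRNP3, a transcription regulator of the same region, was called lower with SCN2A (log2 fold change −0.90). Beside SCN1A, TTC21B was not called (log2 fold change 0.13).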
